A study of Arabidopsis thaliana with 4 samples.

Results

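Chromatin loops near the chromosome ends of Arabidopsis were collected from the H3K4me3 ChIA-PET loop lists of Col-0 and the myc2 mutant. A loop was taken as a member when both of its anchors lay wholly within 500 kb of the same end of a TAIR10 chromosome. By this rule 2467 of 36723 loops of Col-0 (6.72%, 95% Wilson interval 6.47 to 6.98) and 2117 of 32312 loops of myc2 (6.55%, 6.29 to 6.83) were members, spread over the 10 ends of the 5 chromosomes. The rule used position alone and no measured value. The member anchor farthest from an end reached 499 kb inwards, and that of the nearest loop left out reached 501 kb.

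Both groups were aerial parts of 2-week-old seedlings grown at 22 °C with 16 h of light a day, and both were fixed with 1.5 mM EGS for 30 min and then 1% formaldehyde for 10 min. Col-0 is the wild type accession. The myc2 plants are mutant in MYC2, a bHLH transcription factor of jasmonate signalling, and the allele is not given in the sources used here. Each genotype had 2 ChIA-PET samples, but they were pooled before loops were called, so 1 list stood for each genotype and no spread between samples was known. No test between the genotypes was therefore possible, and the intervals below cover counting error only. In bulk tissue a loop formed in fewer cells and a loop formed more rarely in each cell cannot be told apart. The labelled tissue was set beside its marker genes. All 5 shoot genes carried an anchor, with 1816 to 9142 H3K4me3 tags in Col-0, and none of 6 root genes did. Of all coding genes near ends 62.2% had an anchor, and of those elsewhere 54.2%. Only looped places are listed as anchors, so a gene without one may still carry the mark.

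H3K4me3 is a histone mark of active promoters, and ChIA-PET ligates DNA pieces that a protein or mark holds close together, so that a paired-end tag (PET) joining 2 marked places counts as 1 contact. The ends of Arabidopsis chromosomes carry telomeres made of a short repeat, and genes lie close to them at most ends. The left ends of chromosomes 2 and 4 differ, because the nucleolus organizer regions, long arrays of ribosomal RNA genes, lie there and are largely missing from the assembly. MYC2 binds the G-box, CACGTG.

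The outermost assembled bases are shown for 6 ends, because they set where the reference stops and the first genes begin. They are from RefSeq TAIR10.1, whose chromosome lengths equal those of the rule, and capitals mark the telomere repeat unit, CCCTAAA on 1 strand and TTTAGGG on the other.
Left end of chromosome 1, chr1:1-60, plus strand: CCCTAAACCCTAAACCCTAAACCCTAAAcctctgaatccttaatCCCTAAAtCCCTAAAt
Right end of chromosome 2, chr2:19698230-19698289, plus strand: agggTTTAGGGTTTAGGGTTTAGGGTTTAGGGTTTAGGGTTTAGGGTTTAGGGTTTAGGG
Right end of chromosome 3, chr3:23459771-23459830, plus strand: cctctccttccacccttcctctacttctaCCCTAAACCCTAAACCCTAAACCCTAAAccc
Right end of chromosome 5, chr5:26975443-26975502, plus strand: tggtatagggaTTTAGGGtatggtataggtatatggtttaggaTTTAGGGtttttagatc
Left end of chromosome 2, chr2:1001-1060, plus strand: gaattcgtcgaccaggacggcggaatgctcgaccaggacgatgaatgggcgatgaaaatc
Left end of chromosome 4, chr4:1001-1060, plus strand: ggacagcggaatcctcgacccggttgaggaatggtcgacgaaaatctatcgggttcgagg
The left end of chromosome 1 held 6 units in these 60 bases and the right end of chromosome 2 held 8. The right end of chromosome 3 held 4, written in the direction that the left ends use. The right end of chromosome 5 held 2 among altered copies. The left ends of chromosomes 2 and 4 held 0, and each was preceded by 1000 bases of unknown sequence.

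Loops began close to the end of the reference at 8 of the 10 ends. The outermost looped anchor was 41 bp from the right end of chromosome 3 (23459044 to 23459789). It was 1342 bp from the right end of chromosome 2, 2769 bp from the right end and 3600 bp from the left end of chromosome 1, 4021 bp from the left and 4831 bp from the right end of chromosome 5, 4673 bp from the right end of chromosome 4 and 6413 bp from the left end of chromosome 3. The remaining ends were the exceptions. At the left end of chromosome 4 the distance was 12781 bp. At the left end of chromosome 2 it was 74592 bp, and 22 annotated genes lay outside it, 6 of them protein-coding and 2 of them rRNA genes.

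The outermost gene of the right end of chromosome 3, AT3G63540, encodes a thylakoid lumenal protein, and its annotated start lay 26 bp from the end, so that its whole upstream stretch was telomere repeat. It is shown beside the 250 bases upstream of AT1G80980, the gene given to the outermost anchor of the right end of chromosome 1. That stretch held the only G-box found upstream of the genes given to the outermost anchors of the 4 ends with the shortest distance. Capitals mark the repeat unit and the G-box.
Upstream of AT3G63540, chr3:23459805-23459830, minus strand: gggTTTAGGGTTTAGGGTTTAGGGtt
Upstream of AT1G80980, chr1:30424153-30424402, minus strand: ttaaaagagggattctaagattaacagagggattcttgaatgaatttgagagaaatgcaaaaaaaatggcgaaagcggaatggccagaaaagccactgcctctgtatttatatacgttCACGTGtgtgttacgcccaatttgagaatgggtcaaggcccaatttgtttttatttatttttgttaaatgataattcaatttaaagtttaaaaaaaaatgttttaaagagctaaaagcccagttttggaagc
AT3G63540 was joined to TTA2, a fibronectin type III domain protein, by 32 PETs in Col-0 and 11 in myc2. To CCD1, a carotenoid cleavage dioxygenase, it was joined by 34 PETs in Col-0 and 6 in myc2. The outermost anchor given to AT1G80980 (30424464 to 30424902) was joined to AT1G80940 by 12 PETs in Col-0 alone and to AT1G80950 by 6 PETs in myc2 alone. This anchor lay upstream of AT1G80980 and wholly within the coding gene AT1G80990 (30424421 to 30425192), so its gene is uncertain. The stretch shown for AT1G80980, with its G-box, lay outside this anchor. A further anchor, within AT1G80980 itself, met AT1G80950 by 10 PETs in Col-0 and 5 in myc2. In myc2 alone it also met AT1G80970, by 5 PETs.

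At the other ends the outermost genes were of many kinds. NAC001, a NAC domain protein at the left end of chromosome 1, was joined to ARV1 (21 PETs in Col-0 and 8 in myc2), to NGA3, a B3 factor of leaf margins (10 and 9), and to PPa1, a pyrophosphatase (10 and 13). AT2G48160, a PWWP domain protein at the right end of chromosome 2, met PAC, a factor of chloroplast development, in both lists (13 and 9 PETs). In myc2 alone it also met REF4, a Mediator subunit, with 6 PETs. AT5G67640 at the right end of chromosome 5 met TRB2 (20 and 12 PETs) over 12.5 kb. TRB2 is a telomere repeat binding factor, and its own anchor lay 16.8 kb from the end of the reference.

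AT4G40080, an ENTH domain protein at the right end of chromosome 4, had 6 loops in Col-0 and 4 in myc2. Among them were loops to the H3.3 histone gene AT4G40040 (27 and 9 PETs) and to the homeobox gene HB16 (15 and 8 PETs). AT4G00030, a plastid lipid-associated protein at the left end of chromosome 4, kept the same 4 partners in both lists, UNE10, MEE44, AT4G00090 and RPS13A, with 14 to 32 PETs in Col-0 and 6 to 20 in myc2. AT2G01060, the myb-like gene that opens the looped part of chromosome 2, had 7 partners in Col-0 and 6 of the same in myc2. Its loop to BAT1, an amino acid transporter, had 16 PETs in Col-0 and no counterpart. AT3G01030, a zinc finger gene at the left end of chromosome 3, shared none of its loops between the lists. Its 2 loops in Col-0 had 10 and 11 PETs and its loop in myc2, to a different anchor of AT3G01060, had 7.

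**Figure D1:**
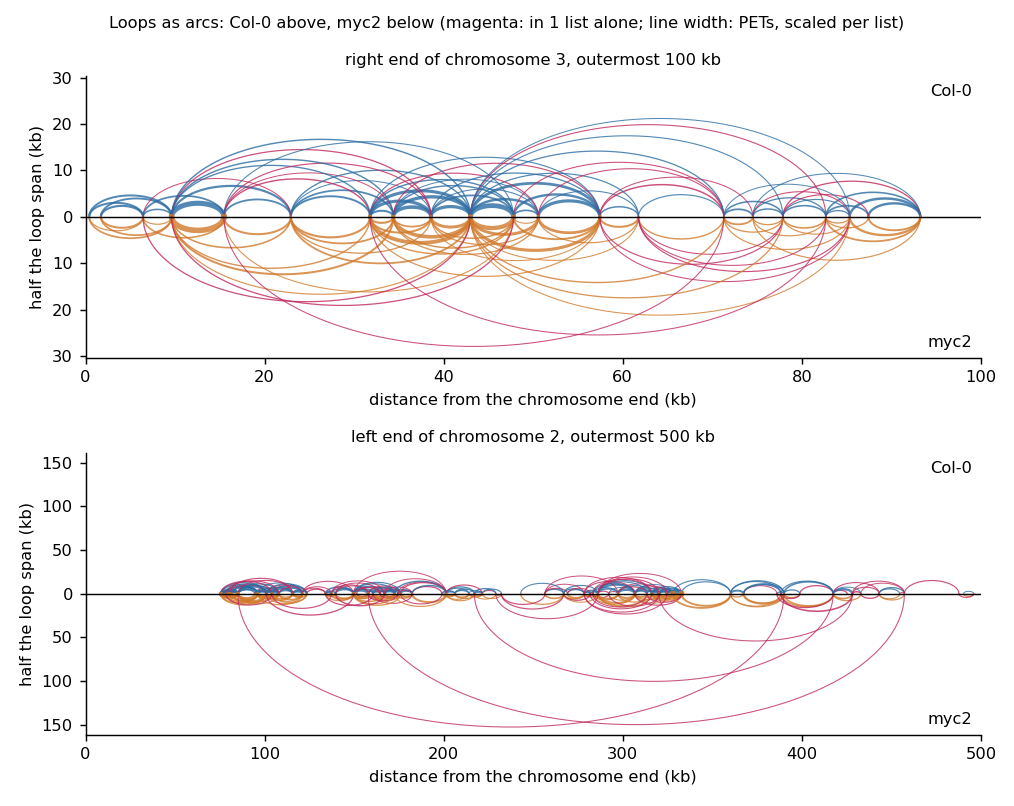
Loops drawn as arcs between anchors against distance from the chromosome end in kb, Col-0 above and myc2 below, with arc height (kb) proportional to span, line width scaled to PETs within each list, and magenta for loops found in 1 list alone. At the right end of chromosome 3 the arcs begin at the end itself, and at the left end of chromosome 2 they begin 74.6 kb inwards and the widest lie below, in myc2.

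The number of loops differed between ends. In Col-0 the order ran from 161 at the left end of chromosome 4 (95% Poisson interval 137 to 188) and 177 at the left end of chromosome 2 (152 to 205) to 297 at the right end of chromosome 3 (264 to 333) and 320 at the right end of chromosome 5 (286 to 357). The other 6 ends lay between 227 and 277. The intervals of neighbours in this order overlapped throughout, while those of the lowest pair lay below those of the highest 6. In myc2 the counts ran from 126 at the left end of chromosome 4 to 277 at the right end of chromosome 5. They were lower than in Col-0 at all 10 ends, as they were in the whole list, and the lists have different minimum PETs (10 in Col-0 and 5 in myc2), so the counts themselves cannot be compared.

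**Figure D2:**
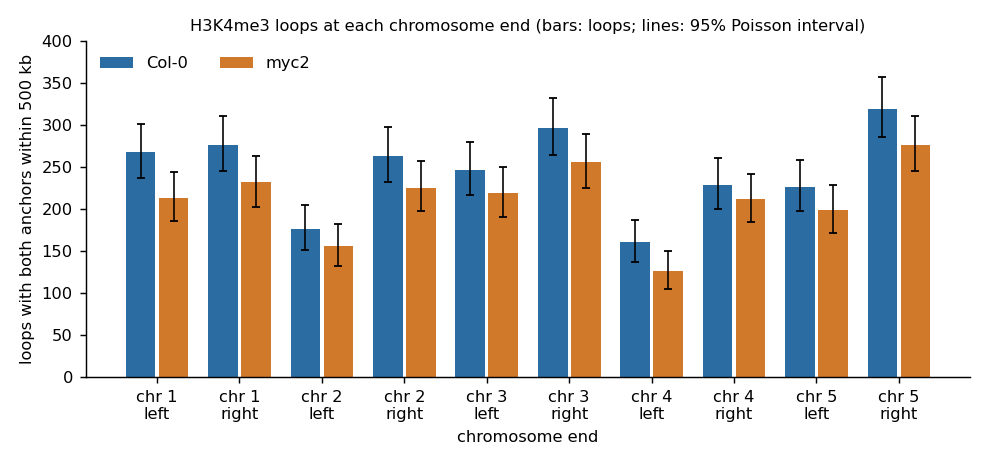
Loops with both anchors within 500 kb of each chromosome end (bars; vertical axis, number of loops) in Col-0 and myc2, with 95% Poisson intervals. The left ends of chromosomes 2 and 4 have 177 and 161 loops in Col-0, against 227 to 320 at the others.

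The windows also differed in gene content. They held 116 to 170 protein-coding genes each. Loops per coding gene in Col-0 ran from 1.10 at the left end of chromosome 4 and 1.45 at the left end of chromosome 3 to 2.12 at the right end of chromosome 5. The share of coding genes with an anchor ran from 54.8% (46.7 to 62.6) to 72.8% (65.3 to 79.3) at the same extremes, chromosome 4 left and chromosome 5 right.

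Loops per coding gene did not increase steadily towards the ends. Counted by loop midpoint in 50 kb bins over the 10 ends, Col-0 had 1.70 loops per coding gene in the outermost 50 kb, 2.01 in the next bin and 1.44 at 450 to 500 kb. Beyond the window it had 2.10 at 550 to 600 kb and 2.18 at 650 to 700 kb. In myc2 the outermost bin had 1.56. The zones 500 to 1000 kb from an end held 2328 loops in Col-0 and 1949 in myc2, or 1.64 and 1.38 per coding gene, against 1.66 and 1.42 at the ends. Of 225 windows of 500 kb that lay outside all end windows, 28 had more Col-0 loops than the median end (255.5) and 3 had more than the highest end. Over these windows together Col-0 had 1.27 loops per coding gene, and over the 172 of them with at least 100 coding genes 1.35.

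**Figure D3:**
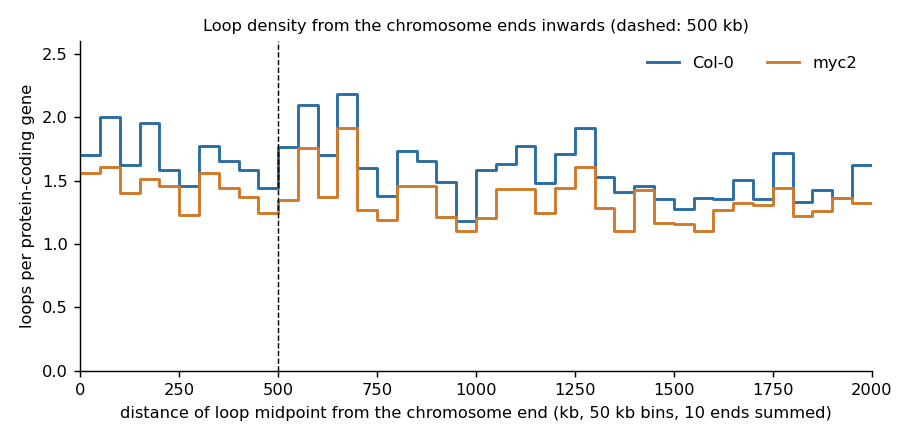
Loops per protein-coding gene (vertical axis) in 50 kb bins of loop midpoint distance from the chromosome end (kb), summed over 10 ends, for Col-0 and myc2, with the 500 kb limit dashed. The bins inside the limit lie between 1.44 and 2.01 in Col-0, and bins beyond it reach 2.18.

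Most loops were short and joined promoters. The median distance between anchor midpoints was 10.7 kb in Col-0 (95% interval 10.4 to 11.2), against 11.3 kb elsewhere (11.2 to 11.4). In myc2 it was 11.2 kb (10.7 to 11.6), against 11.4 kb elsewhere (11.3 to 11.5). A median of 3 coding gene starts lay between the anchors in both lists, near ends and elsewhere. Both anchors met a promoter in 92.9% of Col-0 loops (91.9 to 93.9). The share was 92.6% elsewhere. The median was 16 PETs in Col-0 and 7 in myc2, as elsewhere.

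The strongest Col-0 loop of every end was also in myc2. The loop with most PETs joined AT5G67290, an FAD-dependent oxidoreductase, and the cytochrome P450 gene CYP81G1 at the right end of chromosome 5, with 141 PETs in Col-0 and 67 in myc2. FUS5, a COP9 signalosome subunit, and AT1G02110 followed at the left end of chromosome 1 with 118 and 53. The H3.3 gene AT4G40040, whose anchor lay 24.3 kb from the right end of chromosome 4, met its neighbour AT4G40050 with 114 PETs in Col-0 and 65 in myc2. AT5G01960 and AT5G01970 had 113 and 66 at the left end of chromosome 5. These pairs were neighbours or near neighbours, with spans of 4.28 to 6.44 kb.

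At the right end of chromosome 3, EMB3126, a plastid ribosomal protein, and TTA2 had 101 and 47 PETs. At its left end LNG2, a gene of leaf elongation, met AT3G02200 with 95 and 30. SUS2, a splicing factor, met TMM, a receptor-like protein of stomatal patterning, with 92 and 29 PETs at the right end of chromosome 1. On chromosome 2 AT2G01740 met RR14, a cytokinin response regulator, with 85 and 46 at the left end, and AT2G47850 met SETH6 with 80 and 38 at the right end. AT4G00895 and ECA2, a calcium pump, had the fewest of these, 62 and 28, at the left end of chromosome 4. Each value was lower in myc2, as were PETs over the whole list.

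Loops with a counterpart had fewer PETs in myc2 than in Col-0 near the ends as elsewhere. A counterpart is a loop of the other list that overlaps both anchors by at least 1 bp. Over 1652 such loops Col-0 had 40067 PETs and myc2 17010, which gives a ratio of 0.425 (0.417 to 0.432). Elsewhere the ratio was 0.432 (0.430 to 0.434). It ran from 0.403 (0.383 to 0.423) at the right end of chromosome 3 to 0.448 (0.418 to 0.479) at the left end of chromosome 2. For the 198 loops of at least 40 PETs in Col-0 it was 0.380 (0.367 to 0.394), and elsewhere 0.395 (0.391 to 0.399). PETs are not scaled for depth, so a ratio below 1 by itself gives no direction for the genotypes.

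Loops with more PETs in myc2 were few. There were 6 of 1652, against 0.586% over all loops with a counterpart, and the highest was NAC001 to PPa1 with a ratio of 1.30 (0.527 to 3.31). Of the others, 2 used the glycosyl hydrolase gene AT5G01075 at the left end of chromosome 5, with 10 and 11 PETs to AT5G01020 and 12 and 14 to AT5G01110 in Col-0 and myc2. All 6 intervals included 1. At the low end, chosen after the values were seen, RSR4 and AT5G01430 had 40 PETs in Col-0 against 5, giving 0.125 (0.0385 to 0.317). BRI1, the brassinosteroid receptor, and NST-K1 had 38 and 6 PETs. EDA10 and GAE2 had 57 and 9, a ratio of 0.158 (0.0687 to 0.321).

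Of the Col-0 loops near the ends, 815 of 2467 (33.0%, 31.2 to 34.9) had no counterpart in myc2 and are called lost here. Over the whole list the share was 32.2%, so the ends lay near the background. It ran from 30.1% (24.6 to 36.4) at the right end of chromosome 4 to 38.1% (32.5 to 44.0) at the left end of chromosome 1. In the opposite direction 465 of 2117 myc2 loops (22.0%, 20.3 to 23.8) lacked a Col-0 counterpart, against 23% over the whole list. Which direction was larger depended on the minimum PETs. With the Col-0 minimum raised to 13 PETs, in proportion to the PET ratio of strong loops, the shares were 21.2% and 33.3%. With equal numbers of loops in both lists they were 28.4% and 26.6%.

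Loss fell with PETs and rose with span, which were not separated from each other. A counterpart needs at least 5 PETs in myc2, so loops near the Col-0 minimum of 10 PETs are the most easily called lost. Of the loops with 10 to 11 PETs 67.3% were lost (62.9 to 71.4), of those with 20 to 29 PETs 11.5% (9.05 to 14.5), and of those with 40 or more 0 of 198 (Wilson upper limit 1.90%). Elsewhere these shares were 65.0%, 10.4% and 0.123%. Of loops of 40 kb or longer 76.7% were lost (62.3 to 86.8), against 21.3% (17.5 to 25.7) of those under 5 kb. In the class of 5 to 10 kb the ends had 24.0% (21.1 to 27.1) and all other loops 19.3% (18.6 to 20.1), the only 1 of the 11 classes of span and PETs whose intervals did not overlap. In the outermost 50 kb 24.0% of loops were lost (19.0 to 29.7). At 150 to 200 kb the share was 41.2% (35.8 to 46.8), and these were the lowest and the highest of the 10 bins. Bins beyond the window varied as much, with 41.0% (34.8 to 47.5) at 700 to 750 kb and 22.0% (16.4 to 28.7) at 1900 to 1950 kb.

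**Figure D4:**
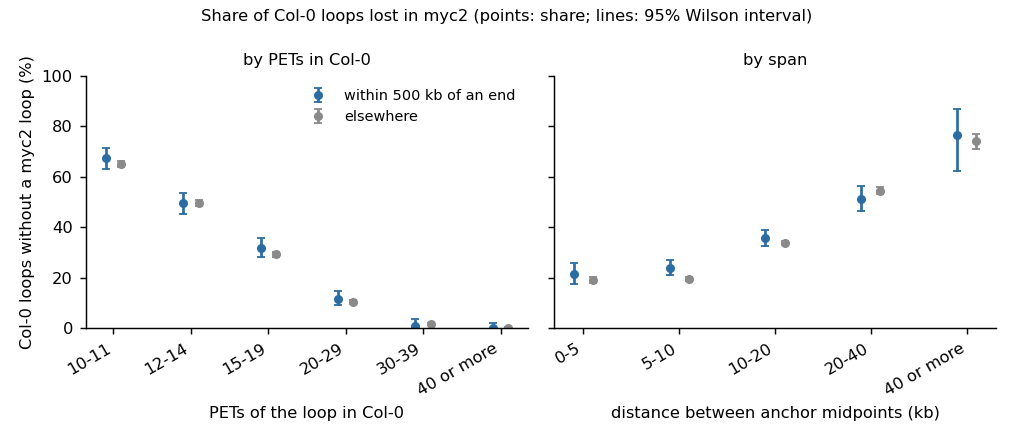
Share of Col-0 loops without a myc2 loop (vertical axis, percent) by PETs of the loop in Col-0 (left) and by distance between anchor midpoints in kb (right), within 500 kb of an end and elsewhere, with 95% Wilson intervals. The share runs from 67.3% at 10 to 11 PETs to 0 at 40 or more, and only the 5 to 10 kb points stand apart.

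Among the lost loops the highest PET count was 33, for AT5G66530, a galactose mutarotase-like gene, and AT5G66560, an NPH3 family gene, at the right end of chromosome 5. AT1G80510 and AT1G80530, both transporter genes at the right end of chromosome 1, had 31. A further 4 loops had 29 PETs, of which 3 are named. They joined AT1G01800 with AT1G01830, AT1G80400 with EMB2753, and AT5G67150 with DEAR2, a repressor with DREB and EAR motifs. PETs of the myc2-only loops cannot be set against these, because neither list is scaled for depth. Among the myc2-only loops the highest count was 11 PETs. Loops with 11 joined AT1G79710 with AT1G79740, and ADF8, an actin depolymerizing factor, with the GSK3-like kinase gene SK32. FUM1 (mitochondrial fumarase) with PHR2, the cohesin subunit gene SCC3 with AT2G48020, and EMB975 with BPC1 each had 10.

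Long loops stood mostly in the myc2 list, at low PETs, near the ends as in the whole lists. Of 36723 Col-0 loops 20 were of at least 100 kb, and of 32312 myc2 loops 270. Near the ends Col-0 had 1. It joined BZIP53, a bZIP factor, with XT1, a xyloglucan xylosyltransferase, over 110 kb at the right end of chromosome 3 with 11 PETs, and was lost. Next came AT1G01725 with GAE2 over 76.4 kb (13 PETs, lost) and AT1G01930 with AT1G02110 over 71.9 kb (12 PETs, and 5 in myc2). The myc2 list had 10 loops of at least 100 kb, each with 5 to 7 PETs. The longest joined APG2, a chloroplast protein translocase, with AT2G01870 over 305 kb, passing 77 coding gene starts. ABCG7 met SOS1, the sodium/proton exchanger of salt tolerance, over 299 kb. Both lay at the left end of chromosome 2. MAPKKK5 met VDAC2 over 236 kb at the right end of chromosome 5. All 3 had 5 PETs, the minimum of the myc2 list and below that of the Col-0 list, so whether Col-0 had such contacts could not be seen.

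Loops chained neighbouring anchors into long networks. At 4 ends, both of chromosome 1 and the left ends of chromosomes 3 and 4, every Col-0 anchor with a loop inside the window was tied to all others, with 80 to 107 anchors in each network. The left end of chromosome 2 fell into 3 networks in Col-0, the largest with 34 of 67 anchors. In myc2 it had 2, the largest with 63 of 66. The left end of chromosome 4 was 1 network of 80 anchors in Col-0. In myc2 it had 3 networks, the largest with 38. The loops of Col-0 together spanned 82.0% of the window at the left end of chromosome 2 and 90.7% to 99.5% at the others. These counts depend on weak loops and on the different minimum PETs.

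Connecting genes, the genes joined to a gene by loops, numbered 5.17 per looped gene near the ends in Col-0 and 4.50 in myc2, against 4.63 and 4.09 elsewhere. With at least 10 PETs in both lists the values near the ends were 5.20 and 1.44. Of 923 looped genes 507 (54.9%, 51.7 to 58.1) had 5 or more in Col-0, against 47.2% (46.4 to 48.0) elsewhere. The rest of the genome includes windows of 500 kb with few or no Col-0 loops. The zones 500 to 1000 kb from an end had 1.64 Col-0 loops per coding gene, against 1.66 at the ends. Partners per gene were not counted for those zones, so whether the ends differ from their neighbours in this was not tested. CA1, the carbonic anhydrase of chloroplasts, had 15 in Col-0 and 9 in myc2. CSP41A, a chloroplast RNA-binding protein, had 15 and 13, and CYP81G1 15 and 16. AT1G02110 had 14 in both lists, though only 10 were the same genes. RKF3, a receptor-like kinase, had 14 and 9. The leading genes of the other ends were AT1G80550 (13 and 10) and AT5G01830, an ARM repeat gene annotated as SAUR21 (13 and 11). Further leading genes were RHA2B, a RING finger protein of abscisic acid response (12 and 11), AT4G40040 (11 and 13) and HAM3, a GRAS factor of meristems (9 and 9).

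CA1 was joined most strongly to LSF1, a gene of starch breakdown (44 PETs in Col-0 and 17 in myc2), to CYP38, a cyclophilin of photosystem II assembly (40 and 11), to the homeobox gene HB-1 (29 and 9) and to AT3G01520 (28 and 9). Its lost loops were weaker, at 10 to 18 PETs, and the strongest of them led to AT3G01435. RKF3 was joined to AT2G47970 (60 and 18 PETs) and to SCC3 (50 and 19). Its lost loops included stronger ones, to SWA1, a nucleolar protein (27 PETs over 3.20 kb), and to DEG2, a chloroplast protease (19 PETs). H3K4me3 tags were lower in myc2 at both genes, as at nearly all anchors, with ratios of 0.750 and 0.804.

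The genes with 5 or more connecting genes in either list, called hubs, were classed by their difference. Of 569 hubs near the ends 83 (14.6%) were partially disassembled in myc2, against 14.1% over all hubs. They had at least 3 fewer connecting genes in myc2, a net drop of 0.3 or more but under 0.7 of the Col-0 number. A partner replaced by another does not add to this drop. A net drop of at least 3 and of 0.7 or more was found in 7 hubs (1.23%, against 0.932% over all hubs). In 20 hubs (3.51%, against 3.54%) there were at least 3 more, making up 0.3 or more of their myc2 number. The ends thus lay near the background in each class, and every count depends on the minimum PETs.

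The 7 hubs with the greatest loss had mostly weak loops. SBTI1.1, a subtilase, met 8 genes in Col-0 but 2 in myc2, and only its loops to AT1G01910 (30 and 18 PETs) and AT1G01930 (19 and 5) had a counterpart. Its lost loops had 10 to 16 PETs. CYP79B2, the enzyme that opens the path from tryptophan to indole glucosinolates, lay 57.7 kb from the right end of chromosome 4 and had 7 and 1. It kept AT4G39960 with 10 and 6 PETs and lacked POR (19 PETs in Col-0) and DHS1 (13). AT4G00390, a storekeeper-related gene, had 5 and 0, among them GPAT8, an enzyme of cutin synthesis (11 PETs), and PIP1;4, an aquaporin (12).

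ATL5, a RING finger gene, had 5 and 1, and lacked loops to XT1 (25 PETs in Col-0) and ABCC14 (21). AT5G01380, a homeodomain-like gene, kept AT5G01390 with 38 and 20 PETs. AT5G66710, a protein kinase gene, and AT5G67411, a GRAS gene, each had 5 partners in Col-0 and a different one in myc2, CHR1, the chromatin remodeler also known as DDM1, and LBD37, each with 5 PETs. The H3K4me3 tags of 6 of these anchors were listed in both genotypes, with ratios of myc2 over Col-0 of 0.703 to 0.826, and the anchor of AT4G00390 was in the Col-0 list alone.

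Among the hubs with more connecting genes in myc2, APG3, a plastid peptide release factor, had 8 and 12, AT2G47440 5 and 9 and scpl25 2 and 6. SOX, sulfite oxidase, had 7 and 10, and CCR1, an RNA-binding protein of cold and circadian response, had 4 and 7. REF4 had 2 and 5. Its loops to AT2G48060 and PAC had 13 and 21 PETs in Col-0 and 10 and 16 in myc2, and its 3 further loops in myc2 had 5 or 6. The 5 loops of APG3 in myc2 alone likewise had 5 or 6 PETs, below the Col-0 minimum.

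The H3K4me3 tags of the anchors themselves were compared as tags in myc2 over tags in Col-0. Of the 966 anchors near ends, 930 (96.3%) were looped in both lists, 29 in Col-0 alone and 7 in myc2 alone. Of 14728 anchors elsewhere, 13812 (93.8%) were looped in both, 620 in Col-0 alone and 296 in myc2 alone. Tags are listed only for looped anchors, so a ratio exists only for anchors looped in both lists. Among the 911 of these near ends with at least 300 Col-0 tags the median ratio was 0.793 (0.787 to 0.799). It was 0.774 (0.773 to 0.776) at 13594 anchors elsewhere and 0.782 (0.776 to 0.790) at anchors 500 to 1000 kb from an end. The left ends of chromosomes 4 (0.840, 0.812 to 0.869) and 2 (0.828, 0.814 to 0.854), which adjoin the nucleolus organizer regions, had the highest medians. Without these ends the median was 0.788 (0.781 to 0.795). The lowest was 0.769 (0.748 to 0.787) at the left end of chromosome 3. Tags are not scaled for depth, so the ratios can be compared only with each other.

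Few anchors lay far from the median. Only 2 of 911 had a ratio under 0.5 (0.207% over all anchors) and 6 had more tags in myc2 (0.331% over all anchors), of which 3 were at the left ends of chromosomes 2 and 4. The lowest ratio, 0.473 (0.418 to 0.535; 808 tags in Col-0 and 382 in myc2), was at an anchor over MIR403, a microRNA gene, at the right end of chromosome 2, which met no coding gene by the rule. AT2G02061 had 310 and 151 tags (0.487) and AT4G39530 353 and 185 (0.524). The highest were GAUT9, a galacturonosyltransferase of cell wall pectin, with 2055 and 2183 tags (1.06, 1.00 to 1.13), and 2 genes at the left end of chromosome 4, AT4G00030 (1775 and 1811, 1.02) and the mechanosensitive channel gene AT4G00290 (1041 and 1060, 1.02).

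**Figure D5:**
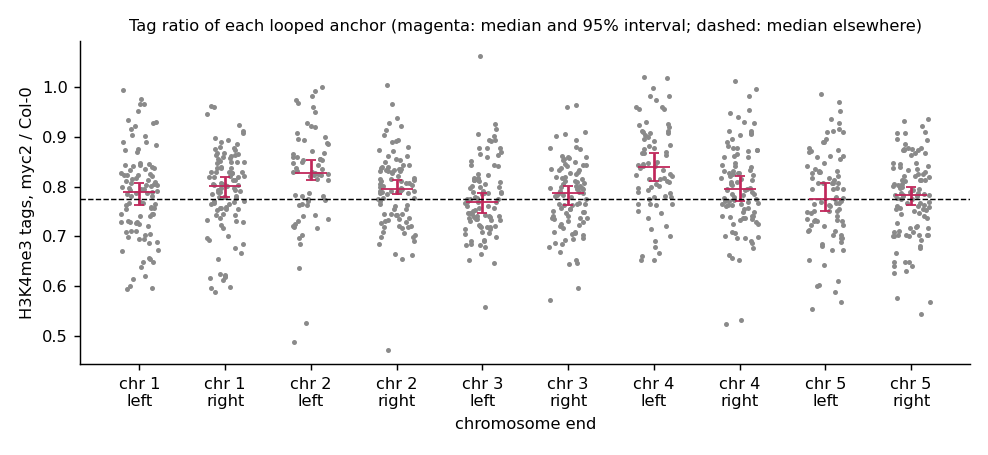
Ratio of H3K4me3 tags in myc2 to tags in Col-0 (vertical axis, no unit) of each anchor looped in both lists with at least 300 Col-0 tags, by chromosome end. The median and its 95% interval are in magenta and the median of all other such anchors is dashed. The medians of the left ends of chromosomes 4 and 2, 0.840 and 0.828, lie above the others.

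The repeat unit and the G-box were searched in the whole sequence of every anchor, on both strands. The letters of these motifs cannot overlap each other, and CACGTG reads the same on both strands. CCCTAAA was in 194 of 966 anchors near ends (20.1%, 17.7 to 22.7) and in 19.3% (18.7 to 20.0) of anchors elsewhere, with overlapping intervals. CACGTG was in 136 (14.1%, 12.03 to 16.4) and in 11.9% (11.3 to 12.4) elsewhere, whose intervals also overlapped. In the 300 bases around the start of the anchor genes, 250 before and 50 after, the shares were 5.42% (4.13 to 7.07) and 9.21% (7.51 to 11.2). They were 5.08% and 8.91% around anchor genes elsewhere, and 5.38% and 7.68% over all coding genes. Of the Col-0 loops near ends with no G-box in either anchor 33.8% were lost (31.6 to 36.1), of those with 1 such anchor 31.5% (28.1 to 35.1) and of those with a G-box in both 29.3% (20.2 to 40.4). The intervals overlapped. Their median PETs were 16, 17 and 19. Elsewhere the lost shares were 32.5%, 31.3% and 29.3%, with median PETs of 16, 17 and 17.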

How the data were processed

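H3K4me3 ChIA-PET was made from 4 samples, 2 of Col-0 and 2 of myc2. Per the study's methods, reads of both samples of a genotype were pooled, loops were called with ChIA-PET Tool V3 between merged H3K4me3 ChIP-seq peaks, and an FDR limit of 0.05 and a minimum of PETs were applied. The genome was TAIR10 per the labels. For these libraries the aligner is not given in the sources used here. Per genotype, the authors deposited 1 loop list with raw PET counts, raw tag counts, a p-value, an FDR and −log10 of both. Neither PETs nor tags are scaled for depth. The lists hold 745505 PETs in 36723 loops (Col-0) and 297390 in 32312 (myc2).

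Anchors were given the protein-coding gene (RefSeq TAIR10.1) that, from 1 kb upstream of its start to its end, covered at least 50% of the anchor, with the largest overlap. A promoter reached from 1 kb before to 0.5 kb after the start. Anchor coordinates are printed as deposited. Shares have Wilson intervals, counts exact Poisson intervals, ratios exact binomial intervals and medians order-statistic intervals, each at 95% and for counting error only. Scripts (Python, pandas, scipy) were tested on simulated data. With 1 pooled list per genotype no p-value was computed between genotypes.

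Named for each end were the gene of the outermost looped anchor, the genes of the strongest Col-0 loop and the gene with most connecting genes. Named over all ends were the 5 lost and 5 myc2-only loops with most PETs, the 3 longest loops of each list, and the 3 highest and 3 lowest tag ratios. All hubs of the 2 extreme classes were listed, and those printed, like the PET ratio extremes, were chosen after their values were seen. The members and lists were chosen with earlier results of these data known. Alternatives were other windows, PET minimums, overlaps, gene rules and sets of ends.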

Additional observations from a re-analysis of the deposited data

How the results depend on the processing

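No paired analysis was possible because the samples of a genotype were pooled before loops were called, and for the same reason no sample could be left out. Window and minimum set the counts by construction. Windows of 250 and 1000 kb held 1315 and 4847 loops of Col-0 and 1104 and 4104 of myc2. At 20 PETs or more in both lists 924 and 122 were left, and at 10 or more 677 of myc2. At 10 or more 72.8% of Col-0 loops were lost and 0.739% of myc2 loops had no counterpart. With the Col-0 minimum raised to 13 PETs these were 21.2% and 33.3%, and with equal numbers of loops 28.4% and 26.6%, where loops tied at the lowest PET count were kept in order of position. Elsewhere in the genome the shares moved with them, to 72.3% and 1.71%, 20.6% and 35.0%, and 27.4% and 27.5%. The PET ratio was 0.380 over loops of at least 40 Col-0 PETs. Leaving out each end in turn gave 32.4% to 33.3% lost. The highest FDR listed was 0.000111, so the stricter FDR limit removed no loop. Per the study's methods, loops of both genotypes were called between the same merged peaks. The 50% overlap therefore gave the same counterparts as the main rule. Neither setting could change the main values, so neither tests how firm they are. Among the other values, the median tag ratio was 0.803 at 250 kb, the median span of myc2 loops 7.72 kb at 10 PETs or more, and connecting genes per gene 7.33 and 6.63 with every promoter overlap counted and 5.20 and 1.44 at 10 PETs or more.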

Other observations

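The genes of the windows were counted by words in their annotated products. Of 1486 coding genes 62.2% (59.7 to 64.6) had an anchor, against 54.2% (53.6 to 54.9) of 25958 elsewhere. F-box genes, a family of ubiquitin ligase adaptors, made up 1.28% (0.820 to 1.99) of coding genes near ends and 2.44% (2.26 to 2.64) elsewhere. Disease resistance genes were only 2 near ends (0.135%, 0.0369 to 0.489) and 192 elsewhere (0.740%, 0.642 to 0.851). Kinase genes made up 5.38% and 5.04%, with overlapping intervals, and ribosomal protein genes 1.21% and 1.26%. Of the 18 ribosomal protein genes near ends 16 had an anchor, and of the 80 kinase genes 61. Annotated pseudogenes numbered 40 near ends and 4803 elsewhere, beside 1486 and 25958 coding genes.

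Loops between chromosomes were in the myc2 list alone, which holds 256 with 5 to 10 PETs, and the Col-0 list holds 0. The Col-0 list starts at 10 PETs, so contacts between chromosomes with fewer PETs in Col-0 could not be seen. Of the 256 loops, 31 had an anchor near a chromosome end, with 5 or 6 PETs each. Anchors near ends made up 32 of the 512 anchor sides (6.25%, 4.46 to 8.69) and 6.16% of all anchors. A single such loop joined 2 ends, AT1G01830 at the left end of chromosome 1 with AT3G62050 at the right end of chromosome 3, with 5 PETs. No loop of either list joined both ends of 1 chromosome.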
